A study of Mus musculus with 15 samples.

Results

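In mouse embryonic fibroblasts that express the PRC2 inhibitor EZHIP, 313 of 1126 peaks of remaining H3K27me3 (27.8%, exact Clopper-Pearson 95% interval 25.2 to 30.5%) shared no base with any peak of EZH2 or of FLAG. These intervals, called H3K27me3-only peaks below, covered 2.79 of 9.26 Mb, or 30.2% of all methylated bases. They were chosen by that lack of overlap, at a minimum of 1 bp, so their separation from EZH2 and FLAG is a description and not a finding. The other 813 H3K27me3 peaks, which overlapped EZH2 or FLAG, serve for comparison.

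The study used chromatin immunoprecipitation with sequencing and holds 15 libraries, each with its own cell condition or antibody. The 3 libraries used here, 1 per antibody, come from fibroblasts titled EEDflox, which carry floxed alleles of EED and stably express wild-type EZHIP from a lentivirus. No drug treatment is given for them, and all 3 libraries share the EZHIP transgene, so cells without EZHIP were not analysed here. Each library gave a list of peak positions with no height, score or read depth, on mouse build mm9, with starts counted from 1 below. FLAG is an epitope tag, here read as marking EZHIP, since the series states that EZHIP was profiled beside H3K27me3 and EZH2.

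PRC2 is the complex that places methyl groups on lysine 27 of histone H3. EZH2 is its catalytic subunit, and EED binds trimethylated lysine 27 and thereby stimulates the enzyme, which helps the mark spread from the sites where PRC2 is recruited. EZHIP carries a stretch that resembles the K27M oncohistone and blocks the stimulated enzyme, and cells that express it keep H3K27me3 mainly at CpG-rich sites that recruit PRC2 strongly. H3K27me3 can also form wide domains far from such sites, and the mark can remain on nucleosomes after the enzyme has left. EZH1, a paralog that can take the place of EZH2 in the complex, was not profiled.

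H3K27me3-only peaks ranged from very narrow to very broad, and most were narrow or of middle width. Under 1 kb there were 138 (44.1%), from 1 kb to under 20 kb there were 142 (45.4%), and at 20 kb or more there were 33 (10.5%). In the whole H3K27me3 list, 15.2% of peaks were under 1 kb, 75.8% were of middle width and 9.06% reached 20 kb. By count, the narrow class was thus larger and the middle class smaller than in the whole list. The broad class differed little. On chromosomes other than 5, 11 of 241 H3K27me3-only peaks reached 20 kb, against 72 of all 983 H3K27me3 peaks. The narrow peaks held 2.67% of the bases of the H3K27me3-only peaks (74.5 kb), the middle ones 38.6% and the broad ones 58.7% (1.64 Mb). The median width was 1399 bp (interquartile range 399 to 10799 bp), against 4999 bp (2999 to 8799 bp) for H3K27me3 peaks with EZH2 or FLAG. A median thus describes few of the H3K27me3-only peaks. Widths are end minus start, and if the deposited ends are inclusive each is 1 bp larger. The 11 peaks of 999 bp would then leave the narrow class, which would hold 127, while the broad class would still hold 33.

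**Figure D1:**
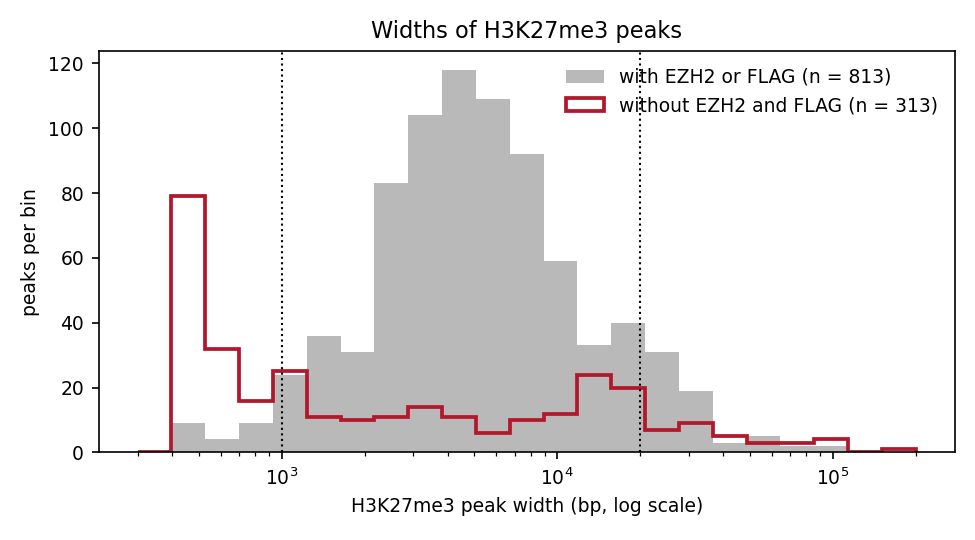
Number of H3K27me3 peaks per bin of width (bp, log scale) with EZH2 or FLAG (grey, n = 813) and without both (red outline, n = 313); dotted lines mark 1 and 20 kb. The red outline is high at the left edge, at 399 bp, low between 2 and 10 kb and higher again above 10 kb, where the grey bars are past their peak.

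The share of H3K27me3 peaks without EZH2 and FLAG was highest for the narrowest peaks, lowest for peaks of 5 to 10 kb, and higher again above 10 kb. It was 80.7% under 1 kb (138 of 171, 74.0 to 86.3%) and 30.4% from 1 to 2 kb (35 of 115). Between 2 and 5 kb it was 10.6% (36 of 341), and between 5 and 10 kb it was 7.97% (20 of 251, 4.93 to 12.0%). Above that the share was 34.9% from 10 to 20 kb (51 of 146, 27.2 to 43.3%) and 32.4% at 20 kb or more (33 of 102, 23.4 to 42.3%). With chromosome 5 left aside the share was again lowest from 5 to 10 kb, at 4.57% (10 of 219, 2.21 to 8.24%). It was 29.7% from 1 to 2 kb (33 of 111) and 27.2% from 10 to 20 kb (31 of 114, 19.3 to 36.3%). On the same chromosomes the share at 20 kb or more was 15.3% (11 of 72, 7.88 to 25.7%), an interval that overlaps that of the 10 to 20 kb class. That share lay below the 24.5% of all peaks on these chromosomes. With chromosome 5 included, 32.4% lay above the 27.8% of the whole list. These shares rest on the overlap that the rule used and are a description. A narrow peak can overlap another list less easily, so width is not independent of the rule.

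The narrow H3K27me3-only peaks were mostly at the smallest width in the list. Of the 138, 79 were 399 bp wide (57.2%, 48.5 to 65.6%), 32 were 599 bp, 16 were 799 bp and 11 were 999 bp. H3K27me3 peaks under 1 kb that met EZH2 numbered 33, and 9 of these were 399 bp wide (27.3%, 13.3 to 45.5%). All 33 lay wholly inside an EZH2 peak, of 2199 to 4399 bp with a median of 2799 bp. The EZH2 list held no peak under 2199 bp, and 173 of the 313 H3K27me3-only peaks (55.3%) were narrower than that. With no heights in the lists, whether an EZH2 signal too weak or too narrow to be called lies at these positions was not tested.

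Narrow H3K27me3-only peaks lay far from EZH2 and from each other. The median gap to the nearest EZH2 peak was 1.22 Mb (interquartile range 0.408 to 2.82 Mb, 137 peaks on chromosomes with EZH2 peaks). For the 33 narrow peaks inside EZH2 peaks, the next EZH2 peak was a median of 0.480 Mb away (0.208 to 1.32 Mb), so the ranges overlap widely. No narrow H3K27me3-only peak lay within 10 kb of EZH2, 9 lay within 100 kb, and 63 lay within 1 Mb. The nearest was chromosome 8 from 12445801 to 12446599 (799 bp), 10.8 kb from EZH2 and 13.0 kb from FLAG. The farthest was chromosome 16 from 70202401 to 70202999 (599 bp), 21.0 Mb from EZH2. The nearest other H3K27me3 peak of any kind was a median of 810 kb away (261 to 2470 kb), and 16 of 137 had one within 100 kb. None thus bordered a called EZH2 peak, and most stood alone, but so did most of the 33 narrow peaks inside EZH2 peaks. Of those 33, 0 had a further EZH2 peak within 10 kb and 5 had another H3K27me3 peak within 100 kb. Their nearest other H3K27me3 peak was a median of 451 kb away (204 to 1142 kb). Only 8 of the 138 shared a cluster, joined by gaps of at most 100 kb, with another H3K27me3-only peak.

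**Figure D2:**
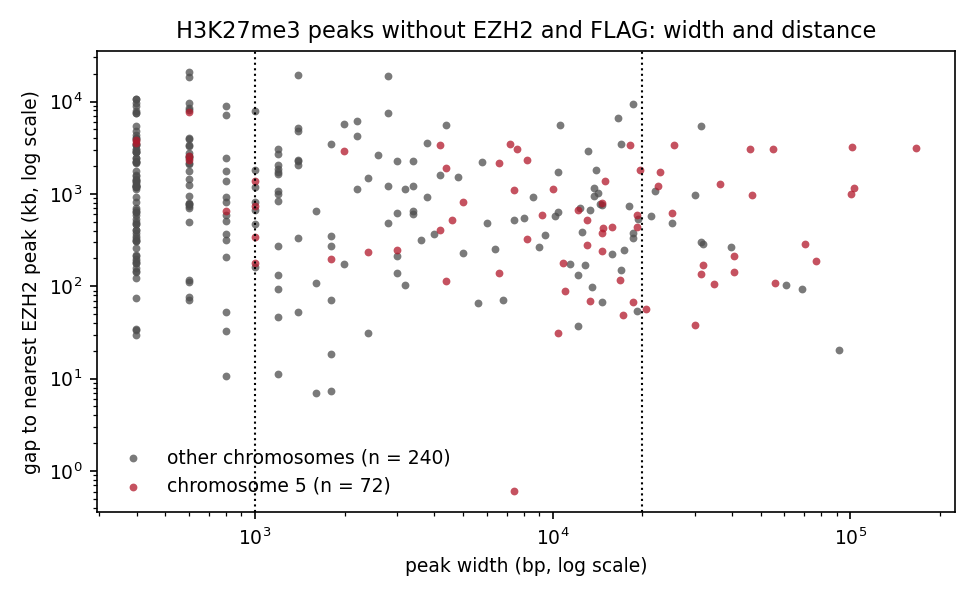
Width of each H3K27me3-only peak (bp, log scale) against its gap to the nearest EZH2 peak (kb, log scale), with 72 peaks of chromosome 5 in red and 240 of other chromosomes in grey; dotted lines mark 1 and 20 kb. Points stand in columns at the left because widths move in steps of 200 bp, and the point at 0.601 kb is the only one with EZH2 within 5 kb.

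Over all widths, H3K27me3-only peaks were rarely close to EZH2. Of 312, 1 had an EZH2 peak within 5 kb, 3 within 10 kb, 17 within 50 kb and 34 within 100 kb (10.9%). The median gap was 0.777 Mb (0.252 to 2.27 Mb). For the 813 peaks with EZH2 or FLAG, the gap was taken to the nearest EZH2 peak that they did not overlap. It had a median of 0.561 Mb (0.171 to 1.68 Mb). Of the 813, 0 had such a peak within 5 kb, 2 within 10 kb and 16.4% within 100 kb. Gaps of up to 10 kb were thus rare in both groups. To FLAG the median gap of the H3K27me3-only peaks was 1.57 Mb, in a list with fewer peaks (438 FLAG against 902 EZH2). Spearman's rho between width and the gap to EZH2 was -0.23 over 312 peaks, a weak relation across peaks that share 1 library and often a neighbourhood.

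Few H3K27me3-only peaks lay close to the limit set by the rule. Just inside it, chromosome 5 from 145311401 to 145318799 (7399 bp) lay 601 bp from an EZH2 peak. The next were chromosome 15 from 75561601 to 75563199, at 7001 bp, and chromosome 16 from 91256001 to 91257799, at 7401 bp. Outside it, the fewest shared bases were 399, in 10 peaks. Of these, 9 were 399 bp wide and lay wholly inside EZH2, so they were not close to the limit by share of width. Under 50% of the peak's own width was shared in 36 of 813 peaks. The lowest share of a peak's own width was 4.70%, at chromosome 15 from 84211601 to 84313799, where 4799 of 102199 bp met EZH2 and none met FLAG. Only 2 H3K27me3-only peaks, of 103199 and 165999 bp, were wider than that domain. At the width limits, the widest middle peak was 19599 bp and the narrowest broad one 20599 bp, both on chromosome 5. The widest narrow peak was 999 bp and the narrowest middle peak 1199 bp.

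The 33 broad H3K27me3-only peaks included the widest peak of the H3K27me3 list. They had a median of 36599 bp (interquartile range 29999 to 60799 bp), against 26399 bp (22999 to 32799 bp) for the 69 broad peaks that met EZH2 or FLAG. The widest was chromosome 5 from 129688601 to 129854599 (165999 bp), 3.16 Mb from the nearest EZH2 peak. Next came chromosome 5 from 146473801 to 146576999 (103199 bp), 1.16 Mb away, and chromosome 5 from 129247201 to 129348199 (100999 bp), 3.23 Mb away. Chromosome 5 from 146316601 to 146416999 spanned 100399 bp at 1.01 Mb. The fifth was chromosome 15 from 74231401 to 74322799 (91399 bp), with an EZH2 peak 20.6 kb and a FLAG peak 22.2 kb away, and no broad H3K27me3-only peak lay nearer to EZH2. The 4 widest thus stood over 1 Mb from EZH2 and the fifth stood close to it.

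The median gap from a broad H3K27me3-only peak to EZH2 was 0.489 Mb (0.143 to 1.23 Mb), and 4 of 33 had EZH2 within 100 kb. With chromosome 5 left out the median over the other 11 was 0.302 Mb. Broad peaks with EZH2 or FLAG had their next EZH2 peak at a median of 0.320 Mb (0.0784 to 1.48 Mb), and 19 of 69 had it within 100 kb. The farthest broad H3K27me3-only peak was chromosome 16 from 96649601 to 96681199 (31599 bp), 5.37 Mb from EZH2. What the broad peaks lay close to was other methylated intervals. Their nearest H3K27me3 peak was a median of 32.8 kb away (23.8 to 70.6 kb), against 199 kb (41.2 to 1228 kb) for the broad peaks with EZH2 or FLAG.

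Most broad H3K27me3-only peaks stood in blocks with other H3K27me3-only peaks. Of 33, 26 (78.8%) shared a 100 kb cluster with another H3K27me3-only peak, as did 48 of 142 middle peaks (33.8%) and 8 of 138 narrow ones (5.80%). The 21 clusters with a broad peak also held 15 middle peaks and no narrow peak. Of these clusters, 14 held 2 or more peaks, and those 14 had 55.4% of the bases of the H3K27me3-only peaks (1.55 Mb). None of the 31 clusters of 2 or more H3K27me3-only peaks, with or without a broad one, contained an EZH2 peak or an H3K27me3 peak of the other kind. Neighbours were also taken by order in the H3K27me3 list, at any distance. The broad peak on chromosome 5 from 141358401 to 141404999 had none nearer than 968 kb. Of 32 broad peaks with neighbours on both sides, all had an H3K27me3-only neighbour on at least 1 side, and 16 on both. The same held on at least 1 side for 76.5% of 136 middle peaks and 45.7% of 129 narrow ones. Among 67 broad peaks with EZH2 or FLAG, 37.3% had an H3K27me3-only neighbour. On chromosome 5, where such peaks are frequent, 6 of 8 of these did, and elsewhere 32.2% of 59 did. The count of peaks in a block depends on how the authors' caller joined neighbours.

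The clusters with the most H3K27me3-only peaks held 5 each. On chromosome 5 from 129607801 to 129977599, 2 broad and 3 middle peaks covered 242 kb, or 65.5% of the stretch, and the nearest EZH2 peak was 3038 kb away. On chromosome 15 from 73942401 to 74322799, 3 broad and 2 middle peaks covered 192 kb, or 50.4%, and EZH2 came within 20.6 kb. On chromosome 5 from 112901201 to 113056399, 4 middle peaks and 1 narrow one covered 51.4 kb, or 33.1%. The gap from these clusters to EZH2 thus differed widely.

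Chromosome 5 carried more H3K27me3-only peaks than any other chromosome, and wider ones. It had 72 of its 143 H3K27me3 peaks without EZH2 and FLAG (50.3%, 41.9 to 58.8%). It held 23.0% of the H3K27me3-only peaks and 12.7% of all H3K27me3 peaks. The other chromosomes had 241 of 983 (24.5%, 21.9 to 27.3%). With 1 peak counted per 100 kb cluster the shares were 39.6% and 22.8%, a smaller gap than with every peak counted. By bases, 69.5% of the H3K27me3 on chromosome 5 lay in H3K27me3-only peaks (1.61 of 2.31 Mb), against 17.0% elsewhere (1.18 of 6.95 Mb). Chromosome 5 alone held 57.6% of the bases of the H3K27me3-only peaks.

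Across the 19 other chromosomes that have EZH2 peaks, the share of H3K27me3 peaks without EZH2 and FLAG ran from 11.4% on chromosome 3 to 45.5% on chromosome 16 (10 of 22, 24.4 to 67.8%), with a median of 23.7%. Chromosome X had 16 of 39 (41.0%, 25.6 to 57.9%), so the intervals of chromosomes 16 and X overlap that of chromosome 5. By bases the other chromosomes ran from 4.29% on chromosome 9 to 44.5% on chromosome 15, all below chromosome 5. Chromosome 16 reached its share mostly with narrow peaks (6 of 10) and chromosome X with middle ones (12 of 16, no broad peak). Chromosome 2 had 12 of 97 (12.4%, 6.56 to 20.6%) and 96 EZH2 peaks, the most of any chromosome. There were 1.86 H3K27me3 peaks per EZH2 peak on chromosome 5, 1.83 on chromosome 16 and 1.01 on chromosome 2. This ratio largely restates the share, since every other H3K27me3 peak overlaps EZH2 or FLAG by the rule.

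**Figure D3:**
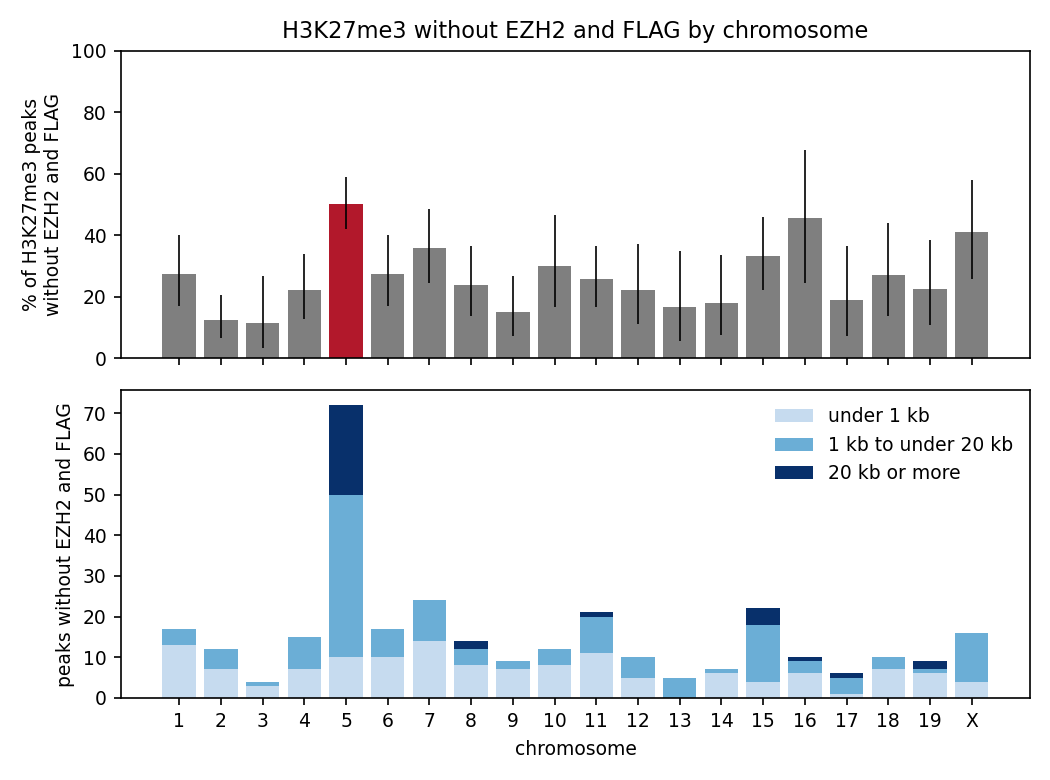
Top, share of the H3K27me3 peaks of each chromosome without EZH2 and FLAG, in percent, with exact 95% intervals and chromosome 5 in red; bottom, number of such peaks by width class. Chromosome 5 reaches 50.3% and holds 22 of the 33 peaks of 20 kb or more, while 14 of 21 chromosomes have none of that width (the only H3K27me3 peak of chromosome Y is not drawn).

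A difference between chromosome 5 and the rest was seen in the middle and broad classes. On chromosome 5, 22 of 30 broad H3K27me3 peaks lacked EZH2 and FLAG (73.3%, 54.1 to 87.7%), against 11 of 72 elsewhere (15.3%, 7.88 to 25.7%). In the middle class the shares were 40.8% (40 of 98, 31.0 to 51.2%) and 13.5% (102 of 755, 11.2 to 16.2%). In the narrow class they were 66.7% (10 of 15, 38.4 to 88.2%) and 82.1% (128 of 156, 75.1 to 87.7%). With 15 narrow peaks on chromosome 5, whether this class differed cannot be told. The H3K27me3-only peaks of chromosome 5 had a median of 13199 bp (interquartile range 4549 to 25299 bp), and those elsewhere 799 bp (399 to 3399 bp). H3K27me3 peaks with EZH2 or FLAG were closer in width, at 6199 bp on chromosome 5 and 4899 bp elsewhere. The median gap to EZH2 was 0.593 Mb on chromosome 5 and 0.828 Mb elsewhere over all widths, and the order differed by class. It was 0.797 against 0.302 Mb for broad peaks, 0.441 against 0.665 Mb for middle ones and 1.86 against 1.22 Mb for narrow ones. Nearest H3K27me3 neighbours were closer on chromosome 5, at a median of 51.3 kb against 525 kb. H3K27me3 peaks with EZH2 or FLAG went the same way, at 209 kb on chromosome 5 against 476 kb elsewhere. Their median gap to the next EZH2 peak was 0.397 against 0.585 Mb, so shorter distances on chromosome 5 were not particular to H3K27me3-only peaks.

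Within chromosome 5 the broad peaks were limited to its distal part. All 22 lay between 105105601 and 148848199, a span of 43.7 Mb. In that span 56 of 89 H3K27me3 peaks were without EZH2 and FLAG (62.9%, 52.0 to 72.9%), with a median width of 14899 bp. EZH2 was not missing from the span, which held 36 EZH2 and 20 FLAG peaks. Outside it, 16 of 54 H3K27me3 peaks on chromosome 5 were H3K27me3-only (29.6%), 7 narrow and 9 middle, with a median of 3399 bp. The ends of the span were set by the peaks themselves, so its share is a description. By steps of 10 Mb, the stretch from 120 to 130 Mb held 11 of the 22 broad peaks, and 715 of its 816 kb of H3K27me3 lay in H3K27me3-only peaks.

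Many H3K27me3-only peaks of distal chromosome 5 lay in a few stretches between neighbouring EZH2 peaks, of which they covered a small part. The 6997001 bp from 126018400 to 133015400 held 15, of which 5 were broad and none narrow, over 474 kb or 6.77% of the stretch. The 2.68 Mb from 145310800 to 147992800 held 10, of which 4 were broad, over 322 kb or 12.0%. The stretches from 116184200 to 117861000 and from 112660000 to 113762800 held 7 and 6, with no broad peak, over 5.34% and 6.09%. These 4 stretches held 38 of the 71 H3K27me3-only peaks that lay between EZH2 peaks on chromosome 5. They held no FLAG peak, as was true of nearly all stretches with an H3K27me3-only peak on any chromosome. Of 806 such stretches on the other chromosomes none held more than 5. Over all chromosomes, 163 of 882 stretches (18.5%) held at least 1 H3K27me3-only peak. Those stretches were longer, with a median of 3.74 Mb against 0.814 Mb for the rest. A longer stretch has more room for a peak, so this difference alone shows no preference for long stretches. On chromosome 5, 26.3% of 76 stretches held one, against 17.7% of 806 elsewhere. The median length of all stretches was 0.933 Mb on chromosome 5 and 1.13 Mb elsewhere. Whether stretch length bears on these shares was not tested.

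Blocks of broad peaks on chromosome 5 also occurred nearer to EZH2. From 118211201 to 118365399, 2 broad peaks of 76599 and 55799 bp covered 85.9% of the stretch, and EZH2 came within 109 kb. From 120670201 to 120832399, 3 broad peaks of 31999, 34799 and 29999 bp covered 59.7%, with EZH2 at 38.2 kb. From 121307601 to 121520399, 3 broad peaks of 40799, 40599 and 70399 bp covered 71.3%, with EZH2 at 143 kb. From 146316601 to 146637199, 3 broad peaks covered 240 kb or 74.9%, with EZH2 at 1006 kb. Blocks of broad peaks thus stood both close to and over 1 Mb from EZH2 on the same chromosome.

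**Figure D4:**
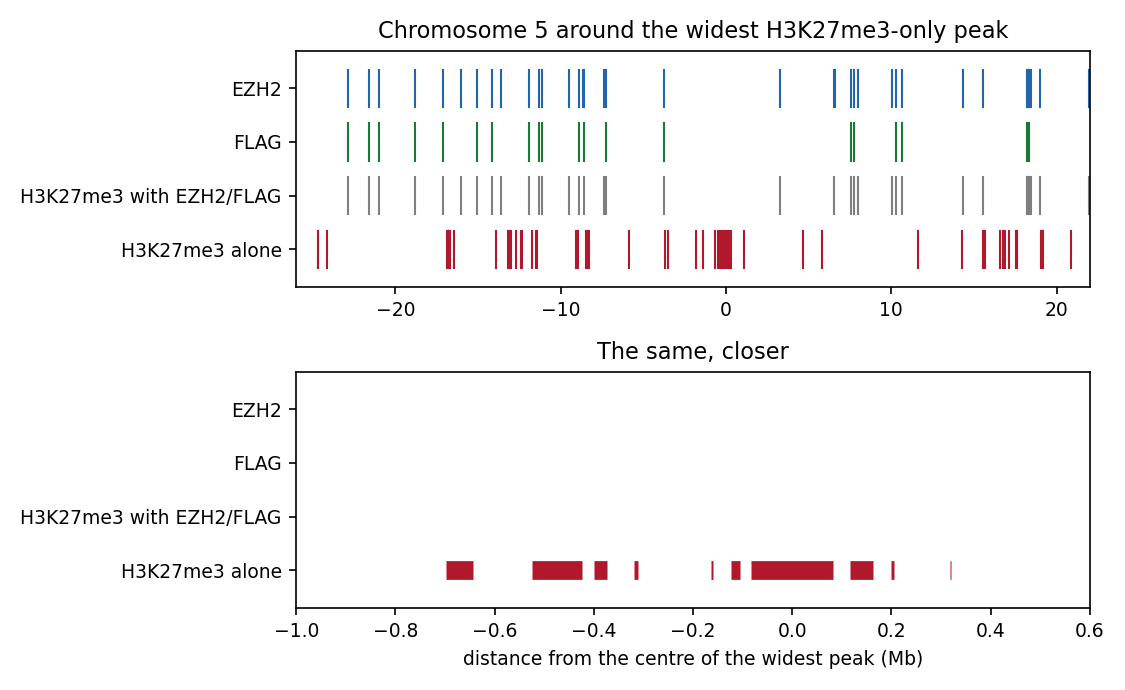
Peaks on chromosome 5 by distance (Mb) from the centre of the widest H3K27me3-only peak, with 1 line per peak in the top panel and intervals to scale in the bottom panel, for EZH2, FLAG, H3K27me3 with EZH2 or FLAG, and H3K27me3 alone. The widest peak (165999 bp) stands in a block of H3K27me3-only peaks in which EZH2 and FLAG have no peak, with the nearest EZH2 peak at 3.16 Mb.

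On the other chromosomes the 11 broad H3K27me3-only peaks were a median of 31599 bp wide, with 4 of the 11 on chromosome 15. Beside the 3 in the chromosome 15 cluster above (39799, 31999 and 91399 bp), chromosome 15 from 83707601 to 83776599 spanned 68999 bp with EZH2 at 94.0 kb. Chromosome 8 had 74322801 to 74383599 (60799 bp), with EZH2 at 103 kb, and a second of 25199 bp. Chromosome 19 had a pair of 21999 and 29999 bp in 1 cluster from 9371401 to 9493999. Chromosome 11 from 118431801 to 118463199 (31399 bp), chromosome 16 (31599 bp) and chromosome 17 from 13283801 to 13305199 (21399 bp) each had 1. Chromosome 15 held 13.1% of the bases of the H3K27me3-only peaks, second to chromosome 5.

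Counts by width class rest on 1 library per antibody and on peak calls whose thresholds the labels do not state. Leaving out chromosome 5 reduced the broad peaks from 33 to 11 and the share of H3K27me3 bases from 30.2% to 17.0%.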

How the data were processed

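Per the labels' protocols, cells were fixed, chromatin was cut to mono-nucleosomes with micrococcal nuclease and precipitated overnight. The build was mm9, and the tools were deepTools and Bowtie 1.0.0, per the submitters' processing notes. How peaks were called, against which control and from how many reads is not given in the sources used here. Lists that the authors deposited hold chromosome, start and end in bp, for 3 of 15 libraries. Starts are multiples of 200 bp and ends lie 1 bp below one.

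Overlap (at least 1 bp), edge-to-edge gaps and clusters (gaps of at most 100 kb) were computed with Python 3.11.15, numpy 2.4.6 and pandas 2.3.3. Shares have exact Clopper-Pearson 95% intervals from scipy 1.17.1, which cover counting error only and treat neighbouring peaks as independent. With 1 library per group no test between samples was possible. The functions were tested on simulated lists. The peaks, their width classes and chromosome 5 were chosen with earlier results of these data known. Regions named are the 5 widest overall and off chromosome 5, the 3 largest clusters, the nearest and farthest from EZH2 and those next to a limit; others were chosen after their values were seen. Gene names, gene lists and sequence need mm9 annotation, which was not used here.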

Additional observations from a re-analysis of the deposited data

How the results depend on the processing

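Each result was recomputed under the alternatives set for it, which gave 70 values. Of these, 57 stayed within 1.5 times a count, within the 95% interval of a share or median, or equal after rounding for the share of bases. Several alternatives, such as joining peaks within 5 kb, changed the H3K27me3-only peaks only from 313 to 312, so this count says little about robustness. The share of H3K27me3 bases, 30.2%, has no such interval. It was 30.1% when EZH2 or FLAG within 1 or 5 kb also excluded a peak or when peaks within 5 kb were joined, 31.7% with the EZH2 list only, 29.7% without the narrowest 25% of the H3K27me3 list, and 17.0% with chromosome 5 left out (added after seeing the data). Leaving out that group, all peaks up to 1999 bp, reduced the H3K27me3-only peaks from 313 to 140 and the narrow ones from 138 to 0, by construction. Their share on other chromosomes then fell from 24.5% to 11.2%, and on chromosome 5 it was 48.4%. With 1 peak per 100 kb cluster the share on chromosome 5 was 39.6%. A limit of 10 kb for broad gave 84 peaks, 42 of them on chromosome 5. Leaving out chromosome 5 gave 11 broad peaks. No paired analysis was possible because each group held 1 library. Read depth is unknown, so no limit of detection can be given.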

Other observations

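Of the 313 H3K27me3-only peaks, 30 lay outside the range of EZH2 peaks on their chromosome, 15 before the first and 15 after the last. Chromosome 7 held 10 of the latter, beyond its last EZH2 peak, which ends at 144516199. They were 799 to 4399 bp wide, 1 of them under 1 kb, and lay 1.61 to 7.56 Mb from EZH2 and 31.4 kb to 1.03 Mb from FLAG (median 454 kb). They made up 10 of the 24 H3K27me3-only peaks of that chromosome, and the H3K27me3 list had 14 peaks there in all. The only H3K27me3 peak on chromosome Y, from 233601 to 233999, was also an H3K27me3-only peak, on a chromosome with no EZH2 and no FLAG peak.

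Runs of neighbouring H3K27me3-only peaks in the H3K27me3 list, uninterrupted by a peak with EZH2 or FLAG, numbered 180. Of these, 112 were of 1 peak and 31 of 3 or more, and the longest held 15 peaks, on chromosome 5 from 126086401 to 130863799. A run of 5 on chromosome 6, from 126689601 to 141321399, was of another kind, with 3 narrow peaks, 5995 bp covered in all and no broad peak.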
